A study of Mus musculus with 16 samples.

Results

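The genes described here are 10 markers of intestinal stem cells, Lgr5, Ascl2, Smoc2, Cdca7, Lrig1, Mex3a, Zbtb38, Cd44, Prom1 and Ephb2. They were chosen by symbol, each stands on 1 row, and the deposited tables hold 31053 rows. Single-cell RNA was measured in mouse AOM/DSS tumour organoids, epithelial cultures grown in 3 dimensions from colon tumours. Such tumours arise in mice given the carcinogen azoxymethane (AOM) and then dextran sodium sulfate (DSS), which inflames the colon. The knockout group carried KMT9ko/ko with plus TAM and the control group KMT9wt/wt with minus TAM, both at passage 14. The labels do not say what TAM stands for, and day 5 is mentioned in table names alone. The age and sex of the donor mice and the driver of the deletion were not given in the sources used here. Since plus TAM always goes with the knockout, effects of TAM and of the knockout cannot be told apart. KMT9 methylates histones and consists of KMT9alpha, encoded by N6amt1, and its partner TRMT112. By the series title the question is how KMT9 bears on growth and stemness in colorectal cancer.

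The design text speaks of 2 samples and each group came with 1 matrix, so its 8 records were taken as parts of 1 library. Each group is therefore n = 1, a test across replicates could not be made, and what follows describes 2 libraries. Intervals are exact 95% ones for counting error alone, except those of pairs of markers, which are approximate. A level is in CPM, UMIs (unique molecular identifiers, which tag each captured molecule once) per 1000000 UMIs of all genes, summed over the kept cells of a library. A ratio is knockout over control and is given on the log2 scale. Higher or lower, as a count of genes, means a ratio past 1.5-fold (0.585 on the log2 scale), which is a size threshold and not a test.

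Colon and small intestine renew from stem cells at the base of crypts, where Wnt ligands and R-spondins keep the cells dividing and undifferentiated. Markers of these cells include receptors and adhesion proteins at the cell surface, secreted modulators, transcription factors switched on by Wnt signalling, and genes tied to proliferation. Some of them, such as Cd44 and Prom1, are also made in epithelial cells outside the stem cell compartment, and fetal-like or injured epithelium is known for low levels of the classical crypt base markers.

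The knockout library held 1481 kept cells with 37301715 UMIs and the control library 2629 cells with 68666384 UMIs. Median depth was 24184 UMIs per cell in the knockout and 24604 in the control library. In both matrices 498 barcodes occurred, which covered 21.9% of the kept knockout cells and 6.31% of the kept control cells. N6amt1, the targeted gene, stood at 6.11 CPM in the knockout and 34.0 CPM in the control library, a log2 ratio of -2.48. The assay reads 3′ ends, and which part was deleted was not given in the sources used here, so this value may not measure the deletion itself. All 7 epithelial genes of a marker list were measured, with a summed level of 14355 CPM in the knockout and 12801 CPM in the control library. Of 6 fibroblast genes 4 had no UMI in either library, of 8 immune genes 3 and of 5 endothelial genes 1, and the summed levels of these lists were at most 20.5 CPM, most of it from the immune-list gene Cd68 and the endothelial-list gene Cdh5.

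Of the 10 markers 9 reached 10 CPM in at least 1 library, and Lgr5 did not. Mex3a, Zbtb38 and Cd44 were higher in the knockout library by 1.5-fold or more, as were 8.12% of the 7910 genes measured at 10 CPM or more. Ascl2, Cdca7 and Lrig1 were lower by 1.5-fold or more, as were 10.7% of the measured genes (18.8% in either direction), and Smoc2, Prom1 and Ephb2 were past neither threshold. By 2-fold or more, Zbtb38 was higher, as were 2.77% of measured genes, and Ascl2 and Cdca7 were lower, as were 2.5% (5.27% in either direction). Without the barcodes found in both matrices the log2 ratios were -1.51 for Ascl2, -1.38 for Cdca7, -0.76 for Lrig1, 0.63 for Mex3a and 1.13 for Zbtb38. The markers thus did not move together, with a median log2 ratio of -0.23 over the 9 against -0.06 over all measured genes. With both libraries given the same mix of cell clusters, 1 marker was higher (Zbtb38), as were 3.49% of 7689 measured genes, and 1 lower (Smoc2), as were 1.92%. The other ratios then lay between -0.59 and 0.17, with Mex3a at -0.033. Several of the clusters held mostly cells of 1 library.

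**Figure D1:**
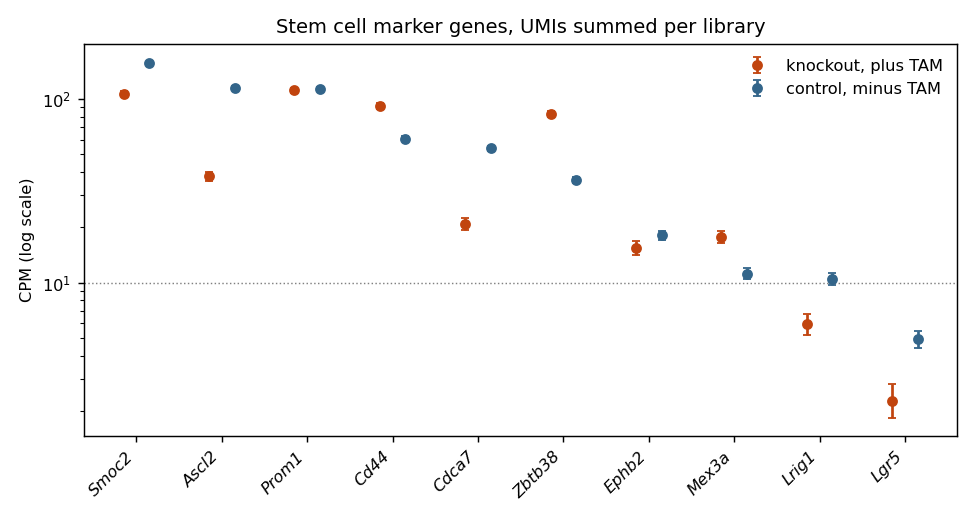
Level of each marker in the knockout (plus TAM) and control (minus TAM) library. The vertical axis is CPM on a log scale, points are UMIs summed over all kept cells, bars are exact Poisson 95% intervals, and the dotted line marks 10 CPM. Ascl2 and Cdca7 lie lower and Zbtb38 higher in the knockout library, Prom1 is nearly level, and Lgr5 lies under the line in both.

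Lgr5 encodes a receptor for R-spondins that strengthens Wnt signalling, and it is the marker by which crypt base stem cells were first traced. It stood at 2.28 CPM in the knockout library (interval 1.82 to 2.82, 85 UMIs) and at 4.92 CPM in the control library (4.41 to 5.48, 338 UMIs). The log2 ratio was -1.11 (-1.47 to -0.76), from a level under the minimum for a call. With each cell thinned at random to 5000 UMIs, so that shares are compared at 1 depth, 0.937% of 1387 knockout cells and 2.25% of 2487 control cells held an Lgr5 UMI. In the colonocyte-like cluster 0 of 182 knockout cells did, with an exact upper limit of 2.01%. The share of the whole knockout library lies under this limit. In its cluster 5 the share was 3.93%, with an interval (1.81 to 7.33) that reaches below the limit. In full counts the colonocyte-like cluster did not lack the gene. Its knockout cells held 7 Lgr5 UMIs, at 1.24 CPM (0.50 to 2.55), against 7.07 CPM (4.92 to 9.83) in knockout cells of cluster 5. No control cluster of 50 or more cells was named colonocyte-like. In the unnamed cluster 9, where 8 colonocyte genes were 2-fold or more above other cells, 3.23% of 186 control cells held Lgr5 (1.19 to 6.89).

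Lrig1, a membrane protein that restrains ErbB growth factor receptors, stood at 5.92 CPM in the knockout library (5.17 to 6.76) and at 10.5 CPM in the control library (9.71 to 11.2), a log2 ratio of -0.82 (-1.04 to -0.60). A UMI was found in 2.52% of thinned knockout cells and in 5.63% of thinned control cells. Ephb2, the receptor for B-type ephrins that positions cells along the crypt, stood at 15.4 CPM in the knockout and 18.1 CPM in the control library, a log2 ratio of -0.23 (-0.37 to -0.08). The Ephb2 interval excludes 0 for counting error, but the difference is under the size threshold. In the colonocyte-like cluster of the knockout library 2.75% of cells held Lrig1 and 9.34% held Ephb2, so neither share in that library (2.52% and 7.5%) was above it.

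Cd44, the receptor for hyaluronan and a known Wnt target, stood at 91.7 CPM in the knockout library (88.7 to 94.8) and at 60.8 CPM in the control library (59.0 to 62.7). Its log2 ratio of 0.59 (0.53 to 0.66) lay just past the threshold, and with scaling by TMM or DESeq2 size factors it was just short of it, at 0.56 and 0.55. It was short of it too without the barcodes found in both matrices, at 0.51. Prom1, a membrane glycoprotein of cell protrusions, stood at 112 CPM in the knockout and 113 CPM in the control library. Its ratio of -0.02 had an interval (-0.07 to 0.04) that bounds any difference over these whole libraries well under 1.5-fold. Shares of thinned cells followed the levels: Cd44 was found in 31.5% of knockout and 23.2% of control cells, and Prom1 in 37.6% of knockout and 40% of control cells.

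Smoc2, a secreted calcium-binding protein of the matrix that belongs to the crypt stem cell signature, stood at 107 CPM in the knockout library (104 to 110.2) and at 156 CPM in the control library (153 to 159). The log2 ratio of -0.55 (-0.60 to -0.50) was just inside the threshold over whole libraries. It passed the threshold without the barcodes found in both matrices, at -0.67, when cells were weighted equally, at -0.63, and with DESeq2 size factors, at -0.59. Smoc2 was detected in 31.2% of thinned knockout and 40% of thinned control cells, against 0.549% of cells in the colonocyte-like cluster of the knockout library. Its UMIs were concentrated, since the 10% of cells with most of them held 48.0% of all Smoc2 UMIs in the knockout and 45.1% in the control library.

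Ascl2, the basic helix-loop-helix transcription factor that Wnt signalling switches on in crypt base cells, had the lowest ratio of the 10. It stood at 37.9 CPM in the knockout library (35.9 to 39.9) and at 115 CPM in the control library (113 to 118), 3.05-fold lower, a log2 ratio of -1.61 (-1.69 to -1.52). A lower ratio was found in 0.480% of the measured genes. Ascl2 was detected in 13.3% of thinned knockout cells (11.6 to 15.2) and in 34.8% of thinned control cells (32.9 to 36.7), against 8.24% in the colonocyte-like cluster of the knockout library. Cells with 2 or more Ascl2 UMIs at this depth made up 2.45% of the knockout and 13.5% of the control library.

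Cdca7, a zinc finger protein that is switched on in proliferating cells and works with the chromatin remodeller HELLS, stood at 20.8 CPM in the knockout library (19.4 to 22.3) and at 54.0 CPM in the control library (52.3 to 55.8). It was 2.59-fold lower, a log2 ratio of -1.38 (-1.49 to -1.26), and was detected in 9.59% of thinned knockout and 20.9% of thinned control cells. Mex3a, an RNA-binding protein that in mouse crypts marks slowly dividing Lgr5 cells, went the other way, at 17.8 CPM in the knockout library (16.5 to 19.2) and 11.2 CPM in the control library (10.4 to 12), a log2 ratio of 0.67 (0.52 to 0.82). When cells were weighted equally its ratio was 0.53, short of the threshold. It was detected in 8.51% of thinned knockout and 5.71% of thinned control cells. In the colonocyte-like cluster of the knockout library 2.75% of cells held Cdca7 and 6.59% held Mex3a (3.45 to 11.2), an interval that includes the Mex3a share of the whole library.

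Zbtb38, a zinc finger transcription factor that binds methylated DNA, had the highest ratio of the 10. It stood at 83.0 CPM in the knockout library (80.1 to 85.9) and at 36.3 CPM in the control library (34.9 to 37.8), 2.28-fold higher, a log2 ratio of 1.19 (1.11 to 1.27). A UMI was found in 33.9% of thinned knockout cells (31.4 to 36.4) and in 16.4% of thinned control cells (15 to 17.9), against 28.0% in the colonocyte-like cluster of the knockout library. Among measured genes 98.1% had a lower ratio. Gene length went with the ratios in these libraries: the median log2 ratio was 0.17 among the longest 10% of measured genes by longest transcript, to which Zbtb38 belongs, and relative to genes of like length its value was 1.02, while Mex3a came to 0.56 and Cd44 to 0.48, under the threshold. On that scale 1 marker was higher (Zbtb38), as were 9.19% of 7907 genes, and 3 were lower (Ascl2, Cdca7 and Lrig1), as were 7.8%.

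The proximal promoters of 4 markers are shown because over whole libraries Ascl2 and Cdca7 had the lowest and Zbtb38 and Mex3a the highest log2 ratios of the 10. The windows are the 250 bases before the RefSeq start on GRCm38.p6, read 5′ to 3′ on the gene's strand, with motif matches in capitals. Where a gene had several starts, the first listed was used. Of the 10 markers 8 had an entry in the promoter table, and Lgr5 and Smoc2 had none. The windows are chr7:142969265-142969514 on the minus strand for Ascl2, chr2:72475969-72476218 on the plus strand for Cdca7, chr3:88531696-88531945 on the plus strand for Mex3a and chr9:96731676-96731925 on the minus strand for Zbtb38.
Ascl2: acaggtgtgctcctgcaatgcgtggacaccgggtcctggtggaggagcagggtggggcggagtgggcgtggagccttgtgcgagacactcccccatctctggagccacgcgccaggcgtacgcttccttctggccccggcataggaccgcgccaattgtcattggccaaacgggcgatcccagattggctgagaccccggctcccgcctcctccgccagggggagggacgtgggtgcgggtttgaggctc
Cdca7: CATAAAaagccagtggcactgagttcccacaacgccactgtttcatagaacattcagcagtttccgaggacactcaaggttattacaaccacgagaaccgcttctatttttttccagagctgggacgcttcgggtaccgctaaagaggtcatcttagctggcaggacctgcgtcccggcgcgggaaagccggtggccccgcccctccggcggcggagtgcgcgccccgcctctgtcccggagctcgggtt
Mex3a: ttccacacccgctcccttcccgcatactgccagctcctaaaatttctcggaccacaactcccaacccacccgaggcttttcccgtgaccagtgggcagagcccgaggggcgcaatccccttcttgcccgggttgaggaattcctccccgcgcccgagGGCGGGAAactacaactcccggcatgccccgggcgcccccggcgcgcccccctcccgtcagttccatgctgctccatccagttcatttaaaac
Zbtb38: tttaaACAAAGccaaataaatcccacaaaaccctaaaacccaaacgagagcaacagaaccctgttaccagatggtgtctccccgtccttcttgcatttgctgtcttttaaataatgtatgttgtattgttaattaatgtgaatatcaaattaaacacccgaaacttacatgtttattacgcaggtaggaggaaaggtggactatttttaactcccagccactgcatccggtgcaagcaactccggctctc

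Searched on both strands were CTTTGA or CTTTGT for TCF/LEF, the factors of Wnt signalling, TTCCCGCC or TTCGCGCC for E2F, CAGCTG for the E-box of ASCL factors, and TTTATG or TTTATTG for CDX factors. Of all 32851 promoter windows of this length, 27.6% held the TCF/LEF letters, 2.27% those of E2F, 13.0% the E-box and 14.3% those of CDX. Zbtb38 held 1 TCF/LEF match, Mex3a 1 E2F match and Cdca7 1 CDX match, each on the minus strand of its window, and the Ascl2 window held none. The other 4 windows, of Lrig1, Cd44, Prom1 and Ephb2, held none of the 4 motifs. The Zbtb38 window also differed in composition, with 40.4% G and C and 6 CpG dinucleotides, against 67.6% and 19 in Ascl2, 59.2% and 21 in Cdca7 and 64.0% and 19 in Mex3a. It lies inside the GENCODE gene, which starts farther upstream.

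In the mm10 annotation (GENCODE M21) Ascl2 lies on chromosome 7 from 142966829 to 142969264, Cdca7 on chromosome 2 from 72476159 to 72486893, Mex3a on chromosome 3 from 88532395 to 88541396 and Zbtb38 on chromosome 9 from 96682770 to 96752831. A gene on the opposite strand overlaps Lgr5, Smoc2, Lrig1, Mex3a, Zbtb38, Cd44 and Prom1, and none overlaps Ascl2, Cdca7 or Ephb2. For Lrig1 the partner is the coding gene Slc25a26, and for Zbtb38 it is the antisense gene A930006L05Rik. Whether counting used the strand was not given in the sources used here, so reads of such overlaps may be shared. On the same strand, where strand cannot separate reads, Mir7041 overlaps Lrig1 and Gm42716 overlaps Prom1.

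Cells were grouped into 12 clusters from both libraries together, with the 10 markers left out of the clustering genes. The libraries were spread unevenly over them: cluster 0 held 37 knockout and 669 control cells and cluster 1 held 10 knockout and 605 control cells, while cluster 3 held 387 knockout and 62 control cells and cluster 4 held 285 knockout and 70 control cells. Clusters 6 and 8 were shared more evenly, with 6.55% of knockout and 9.01% of control cells in cluster 6 and 4.19% of knockout and 5.86% of control cells in cluster 8. Cluster 2 was cycling-like, led by Nusap1 and Ube2c, with 8.85% of knockout and 18.1% of control cells. Cluster 7 was colonocyte-like, led by Clca4a, Muc3 and the chemokine gene Ccl5, with 13.2% of knockout and 1.37% of control cells, and 13 fetal-like genes were also 2-fold or more above other cells in it. Barcodes found in both matrices made up 47.2% of its knockout cells. Cluster 9 is given by number alone, and the other clusters by number and leading genes: 0 (Reg4, Shh), 1 (Golga7b, Timp3), 3 (Tmprss11d, Asprv1), 4 (Cxcl14, Lce1h), 5 (Prss56, Pnliprp1), 6 (Rbp4, Cited1) and 8 (Lars2, Hspa1b). Cells of cluster 8 were shallow, with medians of 3738 UMIs in the knockout and 3728 in the control library. Levels are described for the 7 knockout and 9 control clusters with 50 or more cells.

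The markers were highest in different states. Ascl2 peaked in cluster 2 among knockout cells, at 61.5 CPM, and in cluster 9 among control cells, at 256 CPM. Its lowest levels were 12.9 CPM in knockout cells of cluster 7 and 13.1 CPM in control cells of cluster 5. Cdca7 had the same lowest cluster in the knockout library, at 4.6 CPM, and the same peaks in both, at 50.1 CPM in knockout cells of cluster 2 and 87.9 CPM in control cells of cluster 9, followed by 74.3 CPM in control cells of cluster 2.

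Smoc2 was highest in clusters 5 and 4, where Ascl2 was low. In cluster 5 it stood at 265 CPM in knockout and 571 CPM in control cells, and in cluster 4 at 179 CPM in knockout and 417 CPM in control cells. In cluster 7 it was nearly missing, at 3.36 CPM in knockout cells, 78.7-fold under cluster 5. Ascl2 was lowest in the same knockout cells, at 12.9 CPM. Control cells of cluster 0 had high levels of both, with Smoc2 at 298 CPM and Ascl2 at 141 CPM. Mex3a and Zbtb38 had their 2 highest control clusters in common with Smoc2: Mex3a stood at 34.2 CPM in control cells of cluster 4 and 26.9 CPM in those of cluster 5, and Zbtb38 at 75.9 CPM in control cells of cluster 4 and 82.7 CPM in those of cluster 5. In the knockout library Zbtb38 was again highest in clusters 4 and 5, at 118 and 112 CPM.

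Cd44 and Prom1 were highest in the colonocyte-like cluster 7 of the knockout library, at 171 CPM for Cd44 and 174 CPM for Prom1. Among control cells both were highest in the shallow cluster 8, at 147 CPM for Cd44 and 145 CPM for Prom1. Prom1 was lowest in cluster 5 of both libraries, at 43.8 CPM in knockout and 66.5 CPM in control cells. Cd44 was lowest in control cells of cluster 0, at 24.8 CPM. Lrig1 and Ephb2 were highest in the shallow cluster 8, Lrig1 at 27.2 CPM in knockout and 27.5 CPM in control cells and Ephb2 at 42.8 CPM in knockout and 59.8 CPM in control cells. Outside cluster 8 Ephb2 ran between 12.1 and 18.2 CPM in knockout and between 10.4 and 26.3 CPM in control clusters. Lgr5 was highest in cluster 5 of the knockout library, at 7.07 CPM, and in cluster 8 of the control library, at 14.4 CPM from 12 UMIs, followed by 10.0 CPM in control cells of cluster 5. It had no UMI in knockout cells of clusters 6 and 8.

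**Figure D2:**
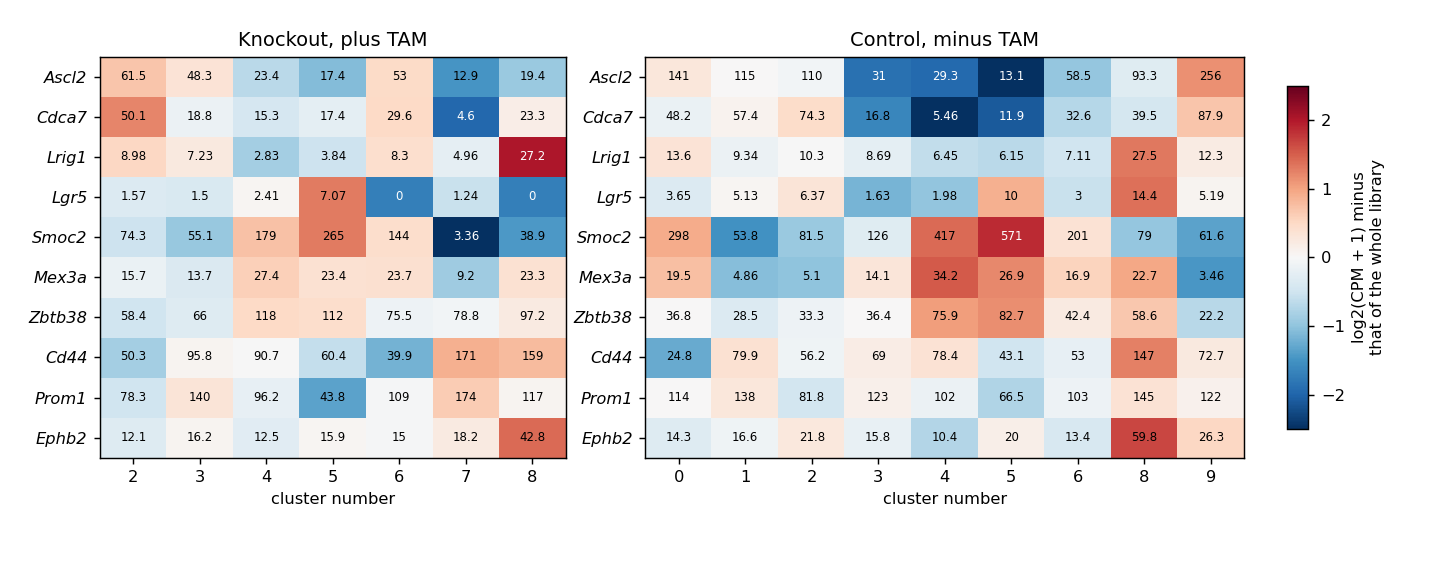
Level of each marker (rows) in clusters with 50 or more cells (columns, by cluster number), knockout on the left and control on the right. Numbers are CPM and colours the difference of log2(CPM + 1) from the whole library. Smoc2, Mex3a and Zbtb38 share their red columns in clusters 4 and 5, where Ascl2 and Cdca7 are blue in the control library.

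Across these clusters the log2 levels of Ascl2 and Cdca7 ran together, with a Pearson coefficient of 0.79 over 7 knockout and 0.89 over 9 control clusters. Smoc2 and Mex3a did so at 0.84 in knockout and 0.81 in control clusters, and Mex3a and Zbtb38 at 0.62 in knockout and 0.89 in control clusters. Ascl2 and Zbtb38 ran opposite, at -0.70 in knockout and -0.80 in control clusters, as did Smoc2 and Cd44 at -0.72 in knockout and -0.54 in control clusters. Ascl2 and Smoc2 differed between libraries, at 0.38 in knockout and -0.72 in control clusters. Clusters of a library share its preparation and depth, and these coefficients describe few points.

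In single cells the number of markers found was close to what independent detection of each would give. A cell thinned to 5000 UMIs held a UMI of 1.77 of the 10 markers on average in the knockout and 1.97 in the control library, with a median of 2 in both. None of the 10 was found in 12.5% of knockout and 9.85% of control cells, against 12.4% of knockout and 9.52% of control cells if each marker were found independently of the others. Cells with 4 or more made up 6.49% of the knockout and 10.7% of the control library, and no cell held more than 7. By cluster this share ran from 2.31% in cluster 2 to 10.6% in cluster 6 of the knockout library, and from 8.06% in cluster 3 to 21.2% in cluster 8 of the control library, the last over 52 cells. A group of cells that held most of the markers at once was thus not detectable at this depth.

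Of the 45 pairs, 2 were found in the same cell at least 1.2 times as often as the product of their shares gives, in both libraries. Ascl2 and Cdca7 were found together 1.76 times as often as the product in knockout cells (1.19 to 2.51) and 1.37 times in control cells (1.2 to 1.56). In control cells 46.2% of those with Cdca7 held Ascl2, against 30.4% of those without. Smoc2 and Mex3a were found together 1.29 times as often in knockout cells (0.95 to 1.71) and 1.51 times in control cells (1.21 to 1.86). The knockout interval of Smoc2 and Mex3a includes 1, so in that library an excess is not resolved. Intervals of pairs are Poisson limits on an average over thinnings, with the expected number held fixed, and are approximate.

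Part of this co-detection went with the clusters. With the expected number summed over clusters, Ascl2 and Cdca7 stood at 1.48 in knockout and 1.24 in control cells, still past 1.2. Smoc2 and Mex3a came to 1.11 in knockout and 1.15 in control cells. Smoc2 and Cd44 were found together less often than the product gives, at 0.85 in knockout (0.71 to 1.02) and 0.75 in control cells (0.64 to 0.87), and within clusters at 0.97 in knockout and 0.90 in control cells. No pair was at 0.8 or less in both libraries. Of the 45 pairs, 30 had 10 or more expected cells in both libraries, and pairs with Lgr5 had too few in the knockout library. Spearman coefficients across cells lay between -0.12 and 0.10 in the knockout and between -0.10 and 0.16 in the control library, which in sparse counts is no finding.

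**Figure D3:**
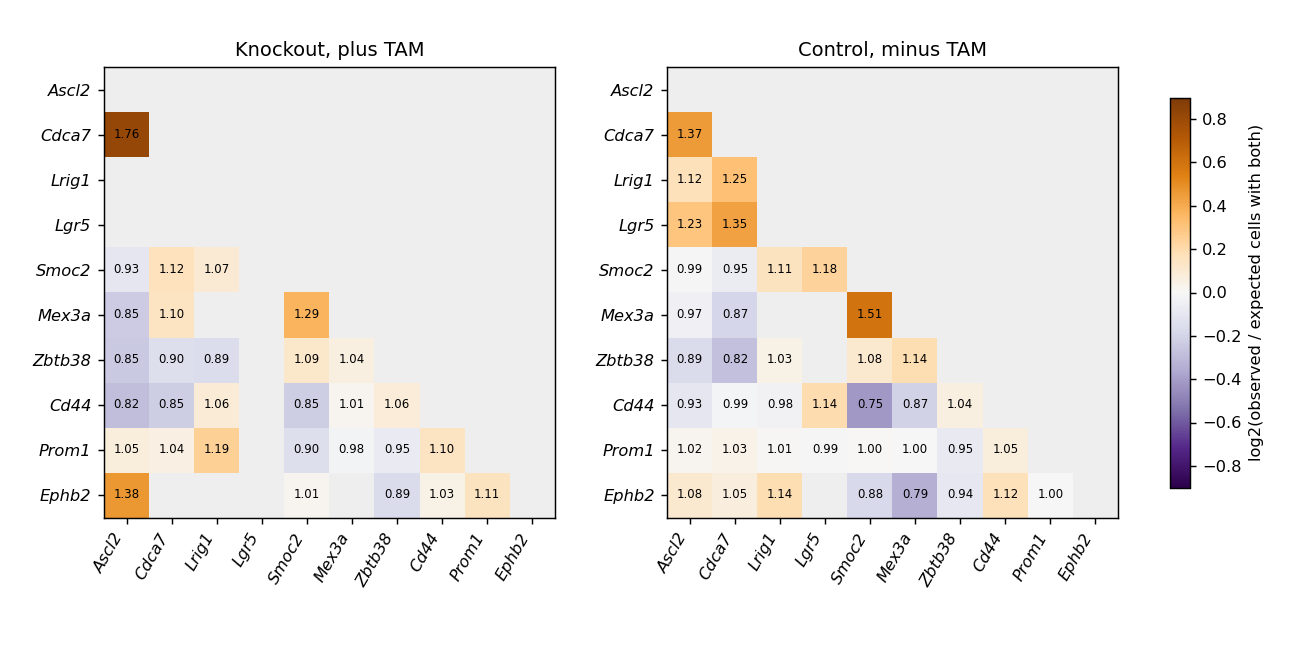
Cells with a UMI of both markers over the number expected from the product of their shares, at 5000 UMIs per cell, knockout on the left and control on the right. Numbers are the ratios, colours their log2, and grey fields have fewer than 10 expected cells. Ascl2 with Cdca7 and Smoc2 with Mex3a are the pairs at 1.2 or more in both libraries, and Smoc2 with Cd44 lies under 1 in both.

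Cells with an Lgr5 UMI in the full counts numbered 72 of 1481 in the knockout and 264 of 2629 in the control library. In knockout cells they carried Smoc2 at 172 CPM, against 103 CPM in cells without Lgr5, and Ascl2 at 33.2 CPM against 38.1 CPM. In control cells they carried Smoc2 at 161 CPM against 156 CPM, Ascl2 at 156 CPM against 109.8 CPM, and Cdca7 at 72.6 CPM against 51.5 CPM. Lrig1 and Ephb2 stood higher in Lgr5 cells of both libraries, from few UMIs. The log2 differences for Lrig1 were 0.43 in knockout and 0.26 in control cells, from 16 and 100 UMIs in Lgr5 cells. For Ephb2 they were 0.47 in knockout and 0.23 in control cells, from 43 and 170 UMIs. No counting intervals were taken for these differences, so they may lie within counting error. Whether the libraries differ in the levels of their Lgr5 cells was not tested. Median depth was 24686 UMIs in Lgr5 cells and 24183 in the others of the knockout library, and 26942 UMIs in Lgr5 cells and 24209 in the others of the control library.

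Ratios within clusters departed from those of whole libraries, over the 6 clusters with 50 or more cells of each library (2, 3, 4, 5, 6 and 8). Zbtb38 was above 0 in all 6, with log2 ratios between 0.44 and 0.86, and Smoc2 below 0 in all 6, between -1.22 and -0.13 with a median of -1.07. The interval included 0 for Zbtb38 in cluster 8 (-0.03 to 1.45) and for Smoc2 in cluster 2 (-0.31 to 0.04). Smoc2 in cluster 3 stood at 55.1 CPM in knockout and 126 CPM in control cells (-1.19, interval -1.42 to -0.97). Zbtb38 in the same cluster stood at 66.0 CPM in knockout and 36.4 CPM in control cells (0.86, interval 0.50 to 1.24).

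Ascl2 had no common direction within clusters. Its log2 ratio was -0.84 in the cycling-like cluster 2 (-1.03 to -0.65), where it stood at 61.5 CPM in knockout and 109.9 CPM in control cells. In cluster 3 it was 0.64 (0.24 to 1.06), at 48.3 CPM in knockout and 31.0 CPM in control cells, and over the 6 clusters the median was -0.23. Cdca7 had a median of 0.01, with -0.57 in cluster 2 and 1.49 in cluster 4, where it rests on 108 knockout and 11 control UMIs. Mex3a had a median of -0.0028 and a value of 1.62 in the cycling-like cluster, at 15.7 CPM in knockout and 5.10 CPM in control cells. Cd44 lay between -0.41 and 0.49 and was past the threshold in no cluster. Prom1 and Ephb2 were each past the threshold in 1 cluster. Prom1 was at -0.60 in cluster 5 (-0.90 to -0.31) and Ephb2 at -0.85 in cluster 2 (-1.29 to -0.43).

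With the control cells weighted to the cluster shares of the knockout library, the log2 ratio of Ascl2 came to -0.15, that of Cdca7 to -0.03, that of Mex3a to -0.033 and that of Cd44 to 0.17. Smoc2 moved the other way, to -1.07, and Zbtb38 stayed past the threshold at 0.68. Lrig1 came to -0.45, Lgr5 to -0.59, Prom1 to -0.05 and Ephb2 to 0.06. With only the clusters of 50 or more cells in each library, Zbtb38 was again higher, as were 3.47% of 7672 genes, and Smoc2 lower, as were 2.18%. Of the genes past the threshold, 43.1% were higher over whole libraries and 64.4% after this weighting. After weighting to the knockout cluster shares Ascl2 and Cdca7 were thus near level, but in cluster 2 both were lower, at -0.84 and -0.57. Of the 6 clusters compared, Ascl2 was below 0 in 4 and above 0 in 2, and Cdca7 in 3 and 3. The weighting leans on few control cells, such as 62 in cluster 3 and 36 in cluster 7. Clusters were drawn without integration and several held mostly cells of 1 library, so weighting by them may also take out differences between the libraries. The lower Smoc2 was larger after the weighting, but not in every cluster. Its log2 ratio was -0.13 in cluster 2 and -0.48 in cluster 6, against -0.55 over whole libraries. Whether the clusters reflect cell states or differences between the 2 preparations was not tested.

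**Figure D4:**
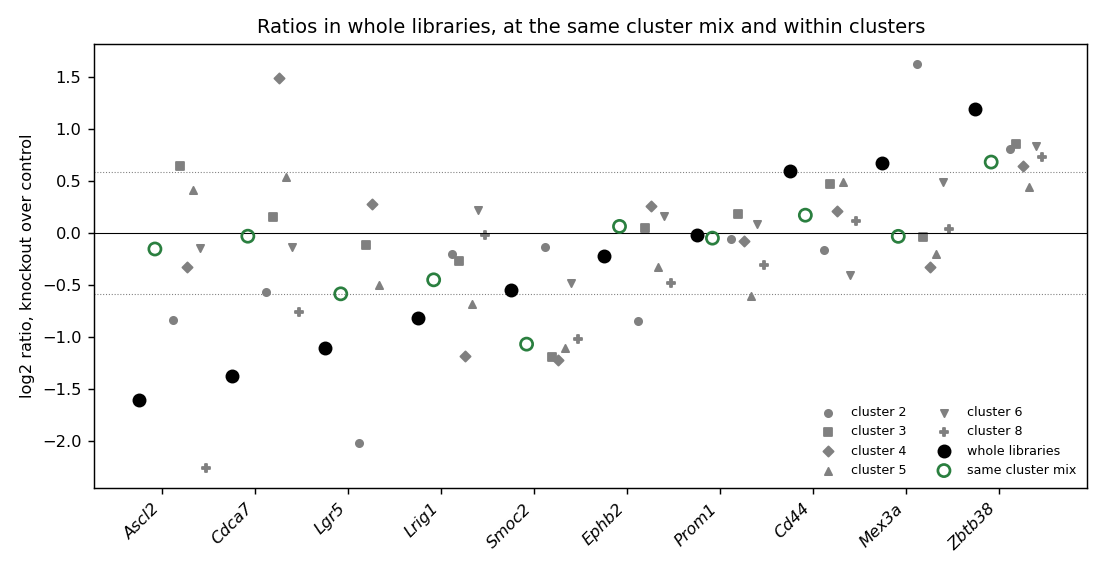
Log2 ratio of knockout over control per marker, over whole libraries (black), with control cells weighted to the cluster shares of the knockout library (green rings) and within the 6 clusters with 50 or more cells of each library (grey). Dotted lines mark 1.5-fold, and clusters with no Lgr5 UMI in knockout cells are left out. Zbtb38 lies above 0 and Smoc2 below 0 in all 6 clusters, while Ascl2 and Cdca7 lie on both sides.

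Cell cycle genes were lower in the knockout library, with 32 of 35 measured S phase genes 1.5-fold or more lower (median log2 ratio -1.10) and 28 of 43 G2 and M phase genes (median -0.68). Of all measured genes 10.7% were lower. The S phase gene Ung stood at 12.9 CPM in knockout and 41.0 CPM in control cells, and the mitotic gene Ckap2 at 14.2 CPM in knockout and 42.9 CPM in control cells. Cells of both libraries were therefore ranked together by summed cell cycle genes at 5000 UMIs and cut into 3 equal parts. The upper part held 18.8% of knockout and 41.4% of control cells.

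Cdca7 followed this score in both libraries. In the knockout library it stood at 12.1, 17.6 and 43.6 CPM in the lower, middle and upper part, and in the control library at 36.2, 40.1 and 74.3 CPM. Ascl2 stood at 26.8, 38.5 and 61.8 CPM in the 3 parts of the knockout library and at 106, 108 and 127 CPM in those of the control library. The ratios of both were negative in each part, at -1.98, -1.48 and -1.04 for Ascl2 and -1.58, -1.18 and -0.77 for Cdca7. The parts span scores of 0 to 8, 8 to 15 and 15 to 142, so cell cycle activity may still differ between the libraries within a part. Mex3a had ratios of 0.40, 0.42 and 1.13 in the same order and Zbtb38 of 1.12, 1.27 and 0.91. Cd44 had 0.56, 0.73 and 0.02, so that it was level between the libraries among the cells with most cell cycle RNA.

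Fetal-like genes, which mark regenerating and fetal gut epithelium, gave another order. Over all measured genes 8.12% were higher and 10.7% lower. Of 22 measured fetal-like genes, 8 were higher and 1 (Areg) lower in the knockout library, with Sprr1a at 231 CPM in knockout and 13.8 CPM in control cells and a list median of 0.38. From the lower to the upper part of cells by this score, Smoc2 stood at 183, 130 and 35.9 CPM in the knockout library and at 246, 189 and 56.7 CPM in the control library. Mex3a was likewise lower in parts with a higher score, at 25.3, 18.2 and 12 CPM in the knockout and 16.9, 11.3 and 6.42 CPM in the control library. Cd44 ran opposite, at 53.2, 71.1 and 133 CPM in the knockout library and 29.8, 55.6 and 88.9 CPM in the control library, and so did Prom1. Zbtb38 was nearly level along it in the knockout library, at 85.0, 82.5 and 81.9 CPM, and stood at 42.0, 37.9 and 30.2 CPM in the control library. By summed colonocyte genes, from the lower to the upper part, Ascl2 stood at 84.0, 102 and 145 CPM in the control library. In the knockout library it stood at 37.4, 39.9 and 37.3 CPM. Cdca7 stood at 36.9, 48.1 and 69.0 CPM in the control and 22.0, 22.5 and 16.8 CPM in the knockout library. Smoc2 was lower toward the upper part in both, from 257 to 83.7 CPM in the control and from 163 to 34.8 CPM in the knockout library.

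**Figure D5:**
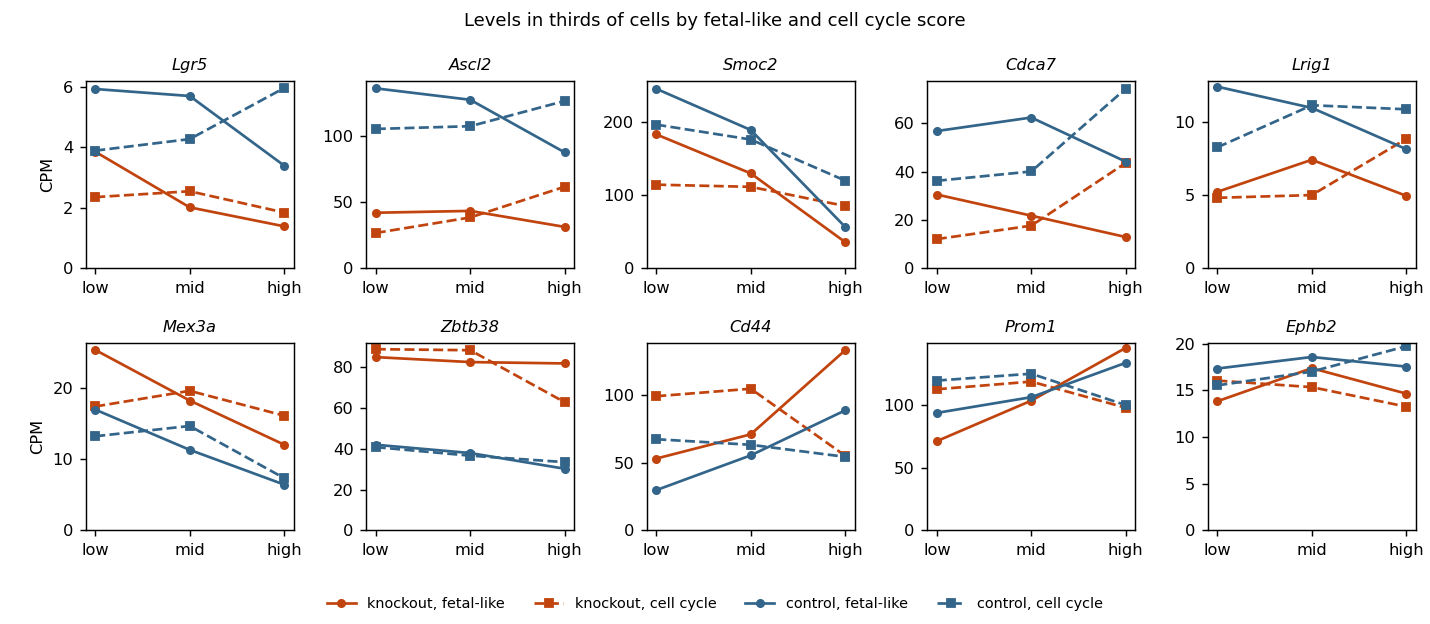
Level of each marker in CPM (vertical axes start at 0) in 3 equal parts of cells ranked by the fetal-like score (solid, circles) and the cell cycle score (dashed, squares), knockout in red and control in blue. Toward the upper part by fetal-like score Smoc2 and Mex3a are lower and Cd44 and Prom1 higher in both libraries, and Cdca7 is highest in the upper part by cell cycle score in both.

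The genes whose levels ran most like a marker's over 2487 thinned control cells, among 3023 genes with 50 or more CPM in the control library, were found by Pearson's coefficient, given here as a description. For Smoc2 they were Ifitm1 (0.45 over control and 0.39 over 1387 knockout cells), Nkd1, a feedback inhibitor of Wnt signalling (0.42 over control and 0.39 over knockout cells), and Marcksl1 (0.38 over control and 0.14 over knockout cells). For Ascl2 they were Ppp1r1b, the intestinal transcription factor Cdx2 and Id2, at 0.23, 0.21 and 0.20 over control cells and 0.15, 0.15 and 0.14 over knockout cells. Ppp1r1b and Cdx2 were themselves lower in the knockout library, with log2 ratios of -1.66 and -1.87. For Cd44 they were the fetal-like genes Ly6a and Anxa2 and the calcium-binding S100a6, at 0.20, 0.20 and 0.19 over control and 0.20, 0.20 and 0.23 over knockout cells. For Cdca7 they were Lgals4, Ascl2 and Tuba1b, for Mex3a Marcksl1, Sox4 and Wnt6, for Zbtb38 Wif1, Mt3 and Mt4 and for Prom1 Msln, Krt19 and Ckmt1, all at 0.19 or less over control cells. Those of Lrig1 and Ephb2 were at 0.07 or less.

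Other genes of the crypt base and its Wnt niche were mostly near level. Over all measured genes 8.12% were higher and 10.7% lower. Of the 29 listed crypt base and niche genes, 17 were measured, of which 1 was higher and 2 lower, with a median log2 ratio of 0.18. The higher one was Znrf3, a ubiquitin ligase that removes Wnt receptors, at 48.7 CPM in the knockout and 32.4 CPM in the control library, a log2 ratio of 0.59 that lies just past the threshold. The lower ones were Rnf32, at 23.8 CPM in the knockout and 56.8 CPM in the control library, and Hopx, at 11 CPM in the knockout and 17.3 CPM in the control library. Axin2, the feedback gene that reads out Wnt signalling, stood at 115 CPM in the knockout and 101 CPM in the control library, and Olfm4 had 1 UMI in the knockout and none in the control library. Of 16 measured Wnt target genes, a list that shares genes with the one above, 4 were higher and 2 lower. The higher ones included Znrf3 again and the Wnt antagonist gene Dkk2, at 14.7 CPM in the knockout and 1.49 CPM in the control library. Lower were the cyclin genes Ccnd1 and Ccnd2.

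Intestinal transcription factors had 1 of 13 measured genes higher (Hes1) and 3 lower, Cdx2, Isx and Cdx1, with Cdx2 at 25.3 CPM in the knockout and 92.8 CPM in the control library. Over all measured genes the shares were 8.12% higher and 10.7% lower. Of 15 measured colonocyte genes 5 were higher and 3 lower, with Muc3 at 18.4 CPM in the knockout and 1.43 CPM in the control library and Fabp2 at 3.16 CPM in the knockout and 10.1 CPM in the control library. Both measured goblet genes were lower, of 5 Paneth-like genes 2 were higher and 2 lower, and no tuft or enteroendocrine gene reached 10 CPM. In the endothelial list Cdh5 was higher, and no epithelial or immune gene was past the threshold.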

How the data were processed

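Libraries were made with 10x Chromium 3′ version 2 chemistry, per the labels' protocols. The authors deposited raw UMI counts, 1 whole number per gene and barcode, from Cell Ranger 3.1.0 (per the file headers) and mm10 (per the submitters' processing notes), without normalization. Of 31053 identifiers 30934 were found in GENCODE M21, and the authors' annotation release was not given in the sources used here. The records of a group may be technical parts, so nothing measures the spread between cultures.

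A cell was kept with 1000 or more genes, 2000 or more UMIs and up to 20% mitochondrial UMIs, which removed 27.9% of knockout and 25.7% of control barcodes. Scrublet's own threshold marked 0.200% of knockout and 0.447% of control cells, so cells were taken out from the highest score down, 0.8% per 1000 cells, 18 in the knockout and 58 in the control library. For shares and scores cells were thinned at random to 5000 UMIs once, which left out 94 knockout and 142 control cells below that depth. Co-detection is the exact average over all such thinnings. Clustering used counts scaled to 10000 per cell, 2000 variable genes, 30 principal components, 15 neighbours and Leiden resolution 0.8 without integration (scanpy 1.11.5, leidenalg 0.10.2, igraph 0.11.9). A cluster took a class name from 3 or more markers 2-fold above other cells with 2 or more of them among its 10 leading genes. Cluster 0 met this for Paneth-like markers but is led by Shh too and was left unnamed, and clusters 8, 9, 10 and 11 met only the first part.

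The markers and gene lists were chosen with earlier results of these data known. Named genes are the 10 markers, the 4 largest ratios at most from each list, the 3 genes most like each marker, the targeted gene and leading genes of clusters. Axin2 and Olfm4 were named after their values were seen. Intervals are exact (scipy 1.17.1), except those of pairs, which are approximate. edgeR 4.0.16 and DESeq2 1.42.0 were used only for scaling factors. The steps were tested on simulated data. Other cell filters, scalings, thresholds, thinning depths and resolutions were tried.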

Additional observations from a re-analysis of the deposited data

Results flagged for a closer look

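The log2 ratio of Ascl2, knockout over control, had opposite signs in different clusters, each with a counting interval that excludes 0. It was 0.64 in cluster 3 (interval 0.24 to 1.06), at 48.3 CPM in knockout and 31.0 CPM in control cells. It was -2.26 in cluster 8 (-3.93 to -0.98), the shallow cluster, where it rests on 5 knockout and 78 control UMIs. With 1 library per group the difference between clusters was not tested.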

How the results depend on the processing

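The counts of markers, 3 higher and 3 lower, became 1 higher and 1 lower with control cells weighted to the cluster shares of the knockout library, where the shares of all measured genes were 3.49% higher and 1.92% lower, and again 1 and 1 with only clusters of 50 or more cells in each library (a setting chosen after seeing the data). The number higher was 1 with a 2-fold threshold and 1 relative to genes of like length (also chosen after seeing the data). Mex3a changed sign to -0.033 with the weighting and to -0.056 in the clusters of 50 or more cells, where Cdca7 changed sign to 0.085. At 2000 UMIs per cell the median number of markers per cell was 1 in both libraries, and 4 pairs, in place of 2, were co-detected in both, the added ones with Lgr5. Of 110 recomputed ratios 81 lay within the counting interval of the main ratio and 26 outside it. The other 3 had a main ratio past 1.5-fold and changed sign. Among the 26, Ephb2 changed sign to 0.06 with the weighting and Prom1 to 0.04 relative to genes of like length. The causes were not tested. The median log2 ratio of measured genes was -0.09 with TMM and -0.10 with DESeq2 size factors. No paired analysis was possible because each group is 1 library. Depth limits Lgr5, Lrig1 and ratios in cluster 8 most.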
